A study of Homo sapiens with 12 samples.

Results

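The niraparib response of TP53BP1-repressed K562 cells was read across every partner gene of a dual-sgRNA library. K562 is a human chronic myelogenous leukemia line, and in CRISPR interference a sgRNA directs a catalytically inactive Cas9 repressor to a promoter. The partners were all genes that shared a construct with a sgRNA named for TP53BP1, in either position, so 542 of the 543 genes of the library were taken, each with 8 constructs. The partners were chosen by sgRNA name and not by value. TP53BP1 itself was put forward with its niraparib response in these data known, so its own response is a description without a test.

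The library held 2 sgRNAs per gene and 55 non-targeting sgRNAs, paired in both orders into 1301881 constructs, and the reads of each construct were counted in genomic DNA. There were 2 screens, 2022 and 2023, each with 2 replicate cultures and 3 arms, which made 6 groups of 2 libraries. T0 cells were taken on day 9 after transduction, and each culture was then divided into a vehicle (DMSO) arm, called the reference, and an arm with niraparib, an inhibitor of PARP1 and PARP2. In 2022 the drug was given at 2 µM and removed after 3 days, and both arms were harvested on day 18. In 2023 the drug was started at 2 µM, raised to 3 µM from day 2 and removed after 4 days, and both arms were harvested on day 19. All cells of all arms carried the CRISPR interference machinery and a construct. Repression of TP53BP1 was not measured in the files used here, so the background rests on the sgRNA names.

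53BP1, the product of TP53BP1, binds chromatin beside DNA double-strand breaks and limits the trimming of their ends. It acts through RIF1, the shieldin complex and CST with DNA polymerase alpha, while BRCA1 with BARD1 and CtIP (RBBP8) favour resection and recombination. Loss of 53BP1 is known to lessen the PARP inhibitor sensitivity of BRCA1-deficient cells, and much less that of BRCA2-deficient cells. The Fanconi anemia proteins form a core complex that ubiquitinates FANCD2 and FANCI at crosslinked or stalled forks.

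The 4336 constructs of TP53BP1 with a partner gave 26 to 8895 reads per partner and endpoint library, with a median of 1740. The 220 constructs of TP53BP1 with a non-targeting sgRNA summed to between 51245 and 115597 reads per endpoint library. Whole libraries held 182552286 to 460723933 reads. No molecular identifiers were used, so reads that PCR copied from 1 molecule were counted apart. Errors below are the spread over the 4 replicate cultures, as SD, or the standard error (SE) of a model across gene pairs.

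TP53BP1 with non-targeting sgRNAs gives the base line of this background. Response is the log2 ratio of niraparib over reference, computed with 0.5 added to each summed count and set to 0 for constructs with a pair of non-targeting sgRNAs. It was 0.55 in 2022 replicate 1, 0.12 in 2022 replicate 2, 0.13 in 2023 replicate 1 and 0.10 in 2023 replicate 2. All 4 cultures lay above 0, and 2022 replicate 1 stood far above the other 3, which lay close together. The mean was 0.22 ± 0.22 (SD, n = 4), and 0.12 ± 0.01 without 2022 replicate 1. Both TP53BP1 sgRNAs showed this departure, at 0.50 and 0.60 in 2022 replicate 1.

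The departure went with the reference library of that culture. Untreated growth, the log2 ratio of reference over T0, was -0.49 in 2022 replicate 1 against -0.10, -0.13 and -0.08 in the other cultures. Niraparib over T0 was 0.06, 0.02, -0.00 and 0.02 in the same order, and showed no such gap. BRCA2, RAD54L and BARD1 with non-targeting sgRNAs had the largest upward departures of response in that culture (1.17, 0.92 and 0.92 above the mean of the other 3 cultures), and TP53BP1 ranked 13 by this measure. Each partner below is therefore set against TP53BP1 with non-targeting sgRNAs in the same culture. Many named partners are given by culture, and counts of calls also without 2022 replicate 1. Means of partners include that culture.

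**Figure D1:**
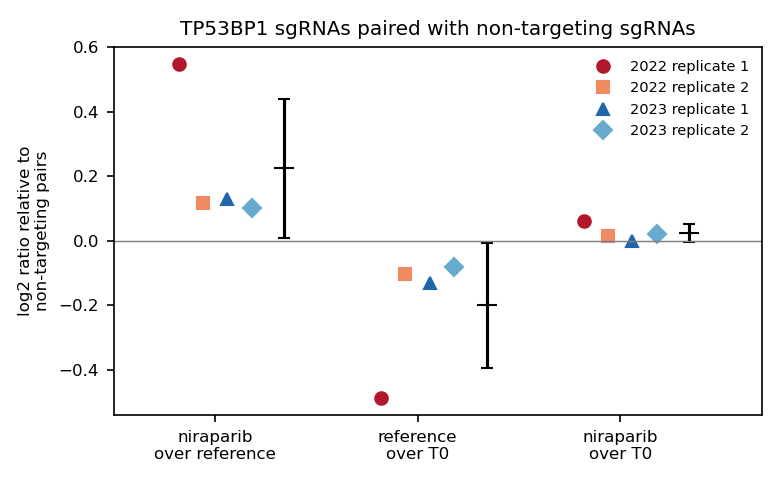
Log2 ratios of TP53BP1 sgRNAs paired with non-targeting sgRNAs, relative to pairs of non-targeting sgRNAs, for niraparib over reference, reference over T0 and niraparib over T0. Points are the 4 cultures, and the bar is the mean with 1 SD; 2022 replicate 1 sits at 0.55 and -0.49 in the ratios that use its reference library, and at 0.06 in the one that does not.

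The partners were compared first within the TP53BP1 background, where 0 is the level of TP53BP1 with non-targeting sgRNAs. By edgeR's quasi-likelihood test with Benjamini-Hochberg adjustment at 0.05, 114 of 541 tested partners were lower with niraparib (21.1%) and 129 were higher (23.8%). Of the 55 single non-targeting sgRNAs tested alongside, 2 passed. The count of higher partners fell to 56 without 2023 replicate 1 and to 40 without 2023 replicate 2, and the count of lower partners to 63 and 67. One partner, NOL6, had too few reads to test (mean 48.75 per endpoint library).

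The difference in response was then tested, as the response with TP53BP1 minus the response of the same partner with non-targeting sgRNAs. A difference above 0 means that the pair was less depleted, or more enriched, in niraparib than the 2 single responses add up to on the log2 scale. In the TP53BP1 background 66 of 541 partners were higher (12.2%) and 15 were lower (2.77%). Over all 146894 gene pairs of the library the same test called 12.8% higher and 7.64% lower, so the number of calls does not set TP53BP1 apart. All 66 higher partners had a mean response below 0 with non-targeting sgRNAs, and 19 of them were not lower within the TP53BP1 background. The 55 non-targeting sgRNAs in place of a partner ranged from -0.16 to 0.14; 0 of them passed with edgeR, DESeq2 or limma, and 3 had an unadjusted edgeR p under 0.05.

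The size of the difference followed how strongly a partner responded on its own; both values share the libraries of the partner with non-targeting sgRNAs, so this is a description. Among the 22 partners with a response under -1 with non-targeting sgRNAs, 19 were higher with TP53BP1, with a median difference of 0.46. Among the 30 partners between -1 and -0.5 there were 21, with a median of 0.22, and among the 66 between -0.5 and -0.2 again 21, with a median of 0.11. The 283 partners between -0.2 and 0.2 had a median of 0.00 and 5 higher calls. Among the 117 partners between 0.2 and 0.5 there were 10 lower calls and no higher call, and among the 24 above 0.5 there were 2 lower calls and no higher call. Set against a curve of degree 2 through all partners, 13 of the 66 remained higher, and they were 9 Fanconi genes, UBE2T, AUNIP, RAD18 and RIF1. BARD1 lay alone at its end of this curve; fitted without BARD1, a setting chosen after seeing the data, the curve left 13 higher as well, all among the 66.

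**Figure D2:**
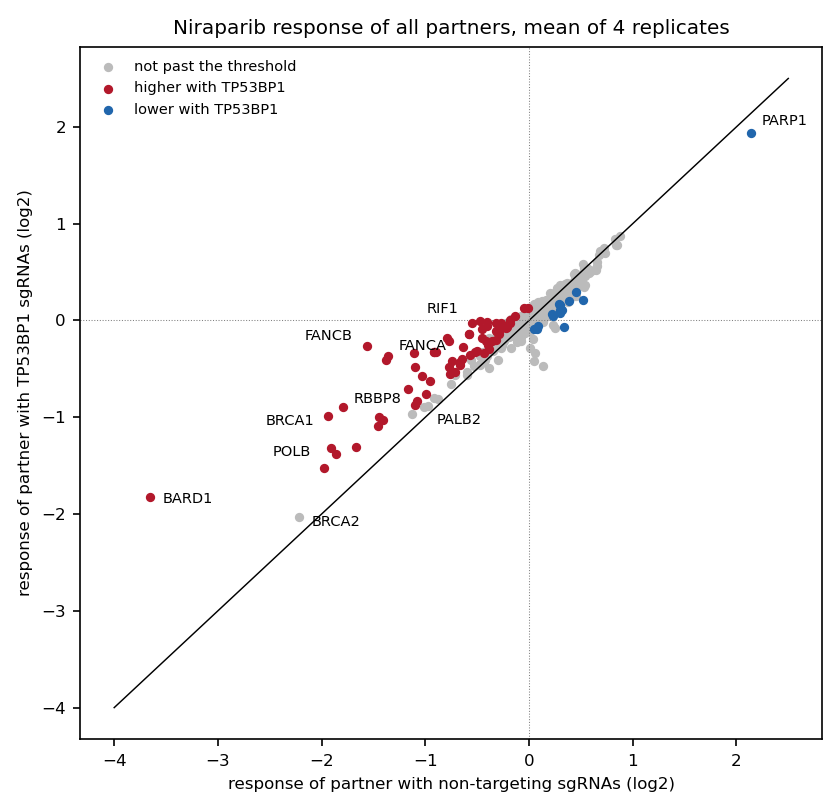
Niraparib response (log2) of each of 542 partners with non-targeting sgRNAs on the horizontal axis and with TP53BP1 sgRNAs on the vertical axis, as means of 4 replicates; the diagonal marks equal responses. Partners with a strong negative response lie mostly above the diagonal, with BARD1 moving from -3.66 to -1.82, while BRCA2 lies near it, at -2.21 and -2.03.

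The largest difference belonged to BARD1, the obligate partner of BRCA1 in its ubiquitin ligase. With non-targeting sgRNAs BARD1 responded at -2.97, -3.78, -3.91 and -3.97 (2022 replicates 1 and 2, then 2023 replicates 1 and 2). With TP53BP1 it responded at -1.90, -1.88, -1.67 and -1.84. Every value with TP53BP1 lay above every value without it, and the groups were separated by more than their spread. As folds of the means, niraparib depleted BARD1 12.6-fold with non-targeting sgRNAs and 3.53-fold with TP53BP1. The difference was 1.84 ± 0.53 (SD, n = 4; edgeR SE 0.064, adjusted p = 1.29e-107).

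BRCA1, the other subunit of the ligase, moved the same way by a smaller amount. Its response was -1.68, -1.95, -1.99 and -2.11 with non-targeting sgRNAs, and -1.03, -0.998, -1.06 and -0.88 with TP53BP1. The groups did not overlap, and both responses stayed well below 0. The difference was 0.94 ± 0.24 (SD, n = 4; edgeR adjusted p = 1.40e-58), or 3.82-fold depletion against 1.99-fold. BRCA1 lay 0.20 above the curve through all partners and did not pass there (limma adjusted p = 0.196; fitted without BARD1, 0.21 and 0.248). BARD1 lay 0.02 above the curve that it helped to set (limma adjusted p = 0.969), and 0.07 above the curve fitted without it (adjusted p = 0.870), which reaches BARD1 only by extension beyond the other partners.

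RBBP8 encodes CtIP, which starts end resection together with the MRE11 complex. It responded at -1.44, -1.81, -1.95 and -1.96 with non-targeting sgRNAs and at -0.91, -0.73, -1.02 and -0.94 with TP53BP1. These groups did not overlap either, and the difference was 0.89 ± 0.25 (SD, n = 4; edgeR adjusted p = 4.39e-30). Its residual from the curve was 0.22 and did not pass (limma adjusted p = 0.146; fitted without BARD1, 0.23 and 0.180). The other resection genes did not share this shift: of 8 measured, RBBP8 was higher, HELB lower, and 6 did not pass, with a median of 0.05. BLM (0.11 ± 0.10) and NBN (-0.10 ± 0.08) did not pass.

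BRCA2, a mediator of homologous recombination on resected ends, was named here after its value was seen. It responded at -1.34, -2.33, -2.60 and -2.59 with non-targeting sgRNAs and at -1.23, -2.06, -2.36 and -2.49 with TP53BP1. BRCA2 was higher with TP53BP1 in each of the 4 cultures, by 0.11, 0.28, 0.24 and 0.10, but the difference did not pass (0.18 ± 0.09, SD, n = 4; edgeR SE 0.090, adjusted p = 0.181). It lay below the curve through all partners (-0.73, limma adjusted p = 0.00141), and below the curve fitted without BARD1 (-0.70, adjusted p = 0.00110). PALB2, which links BRCA1 to BRCA2 and was also named after its value was seen, went from -1.02 ± 0.19 to -0.90 ± 0.12 (edgeR adjusted p = 0.142) and lay below the curve close to the threshold (-0.22, limma adjusted p = 0.0399; fitted without BARD1, -0.21 and 0.0499).

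In a list of 19 measured genes of recombination around BRCA2, which also holds AUNIP, 10 were higher, 0 lower and 9 did not pass, with a median difference of 0.18 against 0.01 over all partners. DESeq2 called 6 of them and limma over the 4 replicates 7. The 4 members farthest from 0 were AUNIP, RAD51B, RAD51C and RAD54L. AUNIP, a factor that helps CtIP reach breaks, was the most regular: -1.07, -1.09, -1.10 and -1.11 with non-targeting sgRNAs became -0.44, -0.37, -0.54 and -0.56. All 4 values with TP53BP1 were higher, by 0.62 ± 0.08 (SD, n = 4; edgeR adjusted p = 4.51e-36).

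RAD51B and RAD51C, which act together in recombination, changed by 0.46 ± 0.14 (from -1.03 ± 0.13 to -0.57 ± 0.22; edgeR adjusted p = 1.76e-13) and 0.46 ± 0.17 (from -1.17 ± 0.28 to -0.71 ± 0.21; edgeR adjusted p = 1.63e-06). RAD54L, a motor protein of recombination, changed by 0.36 ± 0.11 (edgeR adjusted p = 1.16e-08). In RAD54L 2022 replicate 1 stood at -0.76 with non-targeting sgRNAs and at -0.28 with TP53BP1, while the other cultures lay between -1.73 and -1.22 in both backgrounds, so the groups overlapped.

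The Fanconi anemia genes rose almost without exception. Of 15 measured, 14 were higher with TP53BP1 and 1 did not pass, while 12.2% of all partners were higher. The median difference was 0.57 against 0.01 over all partners, and DESeq2 and limma each called 14. Of all partners with a response between -1 and -0.5 with non-targeting sgRNAs, 21 of 30 were higher. Against the curve through all partners 10 of the 15 remained higher, with a median residual of 0.30. Their median response rose from -0.80 with non-targeting sgRNAs to -0.26 with TP53BP1. The responses of all 15 with TP53BP1 lay between -0.41 and 0.01, while those with non-targeting sgRNAs lay between -1.56 and -0.05.

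FANCB, FANCA and FANCG belong to the core complex. FANCB responded at -1.33, -1.59, -1.62 and -1.71 with non-targeting sgRNAs and at -0.34, -0.16, -0.24 and -0.31 with TP53BP1, which is 2.95-fold against 1.20-fold depletion. The difference was 1.30 ± 0.20 (SD, n = 4; edgeR adjusted p = 2.12e-76), the second largest of all partners, and the groups were far apart. FANCA responded at -1.16, -1.36, -1.42 and -1.48, and with TP53BP1 at -0.50, -0.31, -0.38 and -0.27, a difference of 0.99 ± 0.23 (edgeR adjusted p = 8.67e-67). FANCG moved from -0.80 ± 0.13 to -0.18 ± 0.12 (0.61 ± 0.13; edgeR adjusted p = 1.90e-22). C19orf40, also called FAAP24, binds DNA with FANCM, the translocase that recruits the core complex. Its response was -1.22, -1.40, -1.43 and -1.49, and with TP53BP1 -0.46, -0.36, -0.39 and -0.41, so that every culture rose by a similar amount (0.98 ± 0.15; edgeR adjusted p = 7.81e-49).

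UBE2T is the ubiquitin-conjugating enzyme of the pathway, and FANCD2 with FANCI is its substrate. UBE2T rose from -0.92 ± 0.14 to -0.32 ± 0.12 (0.60 ± 0.06; edgeR adjusted p = 2.16e-16). FANCD2 responded at -0.90, -1.11, -1.17 and -1.25 with non-targeting sgRNAs and at -0.21, -0.47, -0.39 and -0.30 with TP53BP1, a difference of 0.77 ± 0.13 (edgeR adjusted p = 5.60e-30). FANCI rose from -0.92 ± 0.16 to -0.33 ± 0.14 (0.59 ± 0.16; edgeR adjusted p = 2.55e-23). With TP53BP1 the means of these 3 genes lay between -0.34 and -0.32. The gene that did not pass, C17orf70 (FAAP100), had almost no response of its own (-0.05 ± 0.01, and 0.01 ± 0.09 with TP53BP1; edgeR adjusted p = 0.417).

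**Figure D3:**
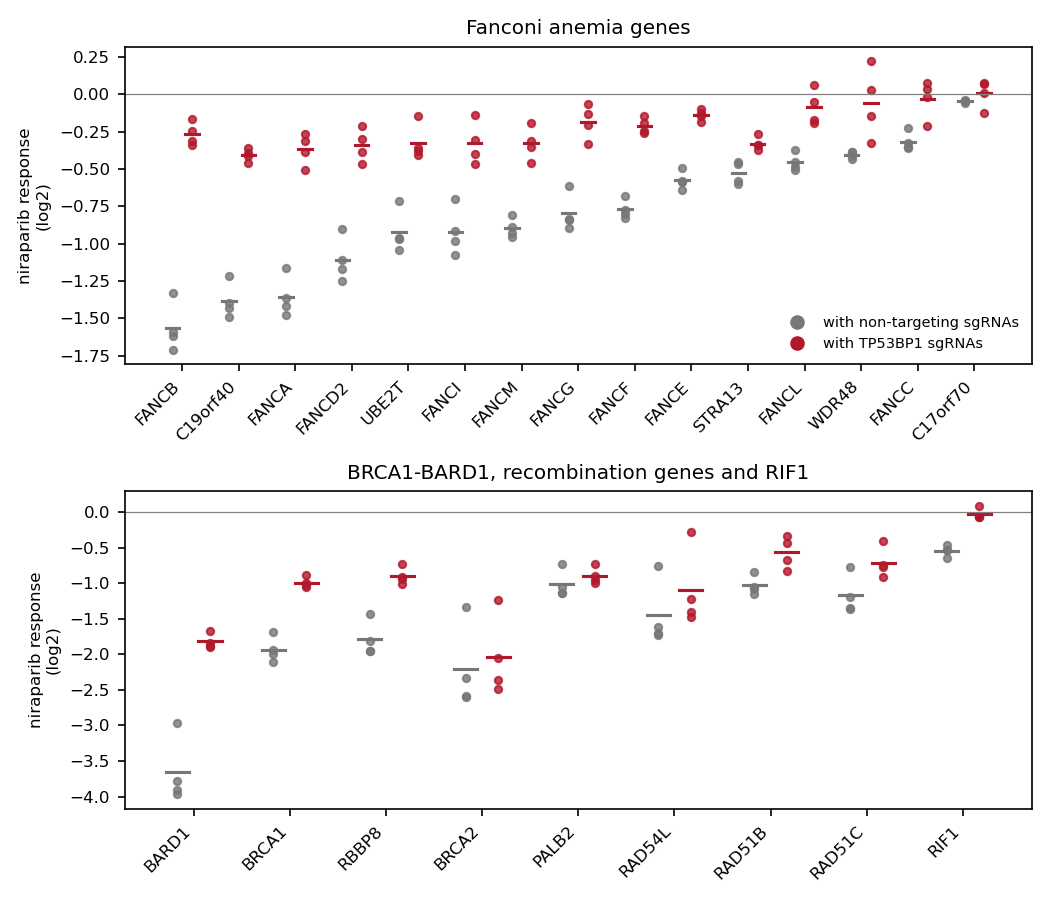
Niraparib response (log2) of 15 Fanconi anemia genes (upper panel) and of BRCA1-BARD1, recombination genes and RIF1 (lower panel), with non-targeting sgRNAs in grey and with TP53BP1 sgRNAs in red; points are the 4 replicates and horizontal lines their means. The Fanconi genes converge on -0.41 to 0.01 with TP53BP1, BARD1, BRCA1 and RBBP8 stay below -0.5, and the values of BRCA2 and PALB2 overlap between backgrounds.

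Among the effectors through which 53BP1 acts, RIF1 was higher. It binds phosphorylated 53BP1 and also controls replication timing. It responded at -0.46, -0.65, -0.53 and -0.54 with non-targeting sgRNAs and at -0.07, 0.09, -0.06 and -0.07 with TP53BP1. Its sensitivity was no longer detected in the TP53BP1 background (edgeR adjusted p = 0.735 within it), and the difference was 0.52 ± 0.15 (SD, n = 4; edgeR adjusted p = 6.83e-21).

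The other effectors had little response of their own and moved little or downward. C20orf196 (SHLD1), a shieldin subunit, responded at 0.18, 0.06, 0.02 and 0.07, and with TP53BP1 at 0.06, -0.18, -0.13 and -0.11. The groups overlapped slightly, and the difference was lower in each of the 4 cultures (-0.17 ± 0.05; edgeR adjusted p = 0.000122; limma over the 4 replicates, adjusted p = 0.0607). FAM35A (SHLD2) was at -0.12 ± 0.11, MAD2L2 (REV7) at -0.03 ± 0.07 and PAXIP1 (PTIP) at -0.01 ± 0.05, and none of these 3 passed. Of 5 measured effectors, 1 was higher and 1 lower, with a median difference of -0.03 against 0.01 over all partners.

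CST and polymerase alpha-primase fill in resected ends downstream of shieldin. Of 7 measured, CTC1 was lower and 6 did not pass, with a median of -0.07. CTC1 responded at 0.14, 0.06, -0.01 and -0.00 with non-targeting sgRNAs and at 0.00, -0.10, -0.19 and -0.06 with TP53BP1. The groups overlapped, and its difference of -0.14 ± 0.06 (edgeR adjusted p = 0.0157) was not called by DESeq2 or limma. OBFC1 (STN1) was at 0.02 ± 0.07, TEN1 at 0.05 ± 0.07, POLA1 at -0.22 ± 0.25, POLA2 at -0.07 ± 0.11, PRIM1 at 0.03 ± 0.19 and PRIM2 at -0.07 ± 0.28. POLA1, PRIM1 and PRIM2, with the widest spread, had 204 to 466 reads per library.

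The factors that bring 53BP1 to breaks had differences near 0. RNF8 and RNF168 are the ubiquitin ligases of this step, H2AFX encodes the histone variant H2AX, ATM is its kinase, and DYNLL1 with its regulator ATMIN helps 53BP1 form oligomers. The differences were -0.08 ± 0.07 for ATM, -0.07 ± 0.16 for RNF8, -0.03 ± 0.06 for ATMIN, 0.06 ± 0.03 for RNF168, 0.07 ± 0.10 for DYNLL1 and 0.07 ± 0.08 for H2AFX. With edgeR, DESeq2 and limma 0 of the 6 passed, and 0 had an unadjusted edgeR p under 0.05. Their own responses were small as well, with means from -0.15 to 0.01. ATM was lower with TP53BP1 in the second position alone (-0.23) and not in the first (0.07).

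RAD18, a ubiquitin ligase of post-replication repair that also acts at breaks, lost its response. It was at -0.42, -0.48, -0.49 and -0.50 with non-targeting sgRNAs and at -0.00, 0.01, -0.04 and 0.01 with TP53BP1. All 4 cultures rose by a like amount (0.47 ± 0.04, SD, n = 4; edgeR adjusted p = 3.89e-21), and within the TP53BP1 background RAD18 was not called (edgeR adjusted p = 0.950). The other 3 measured genes of post-replication repair, SMARCAL1, ZRANB3 and HLTF, did not pass, at 0.10 ± 0.05, -0.06 ± 0.17 and -0.02 ± 0.07.

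Base excision and single-strand break repair genes all rose but kept most of their sensitivity. All 6 measured were higher, against 12.2% of all partners, with a median of 0.35 against 0.01 over all partners. All 6 stayed lower within the TP53BP1 background. Their median response with non-targeting sgRNAs was -1.33, and 19 of the 22 partners under -1 were higher. Against the curve through all partners 2 of the 6 passed, both below it, and the median residual was -0.12. POLB, the gap-filling polymerase, responded at -1.74, -1.75, -2.07 and -2.07, and with TP53BP1 at -1.09, -1.11, -1.65 and -1.42. The groups did not overlap (0.59 ± 0.12; edgeR adjusted p = 7.72e-26), yet against the curve through all partners POLB turned to -0.14 (limma adjusted p = 0.410; fitted without BARD1, -0.13 and 0.367). DNPH1, which removes a modified nucleotide from the pool, went from -1.86 ± 0.10 to -1.38 ± 0.06. XRCC1, the scaffold of the pathway, went from -1.67 ± 0.29 to -1.30 ± 0.30, and LIG3, its ligase, from -0.96 ± 0.10 to -0.63 ± 0.10.

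PARP1, the drug's target, was the partner with the strongest gain in niraparib. It responded at 2.61, 1.79, 2.08 and 2.08 with non-targeting sgRNAs and at 2.24, 1.66, 1.95 and 1.89 with TP53BP1. The groups overlapped, but each culture was lower with TP53BP1 (-0.20 ± 0.11; edgeR adjusted p = 2.26e-06). Of 7 measured genes of PARP and ADP-ribose turnover, 2 were higher and PARP1 lower, with a median of 0.08. The higher ones were NAMPT, which makes the NAD+ precursor (0.45 ± 0.15), and C4orf27 (HPF1), the PARP1 cofactor for serine modification (0.44 ± 0.10). NMNAT1, the next enzyme after NAMPT, did not pass (0.09 ± 0.15).

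The other lists are given as counts, to be read against the 12.2% of all partners and 12.8% of all gene pairs that were called higher. In the ATR-CHK1 checkpoint 2 of 14 were higher (HUS1 at 0.18 ± 0.14 and ETAA1 at 0.15 ± 0.07), while TOPBP1 (0.15 ± 0.11) and RAD17 (0.15 ± 0.16) did not pass; DESeq2 and limma called 0 of the 14, and 5 had an unadjusted edgeR p under 0.05. HUS1 was also the 1 of 7 that passed in polymerase theta end joining with CIP2A. Non-homologous end joining had 0 of 6 by edgeR, DESeq2 and limma, with 1 unadjusted p under 0.05, and differences from -0.10 ± 0.15 (LIG4) to 0.08 ± 0.10 (PRKDC). The BRCA1-A complex had 0 of 4 by the same tools and 0 at an unadjusted p under 0.05.

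Among replisome and clamp loader genes 3 of 22 were higher, led by WDHD1 (0.38), RFC1 (0.25) and CHTF18 (0.20). SLX4 (0.22) was the 1 of 5 structure-specific nuclease genes, RNASEH2C (0.21) the 1 of 7 in BLM-TOP3A-RMI and RNase H2, and PPP4C (0.18) the 1 of 5 phosphatase genes that passed, all upward. Of SMC5-SMC6, 0 of 2 passed, and of mitochondrial serine and one-carbon metabolism 0 of 6, by edgeR, DESeq2 and limma, with 0 and 1 at an unadjusted edgeR p under 0.05.

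Among partners past the threshold with the same sign in every culture, the 12 lowest had smaller shifts than the 12 highest. NUP54, a nuclear pore subunit, was at -0.41 ± 0.26 (edgeR adjusted p = 0.00908), with a mean of 366 reads per library and -0.79 in 2023 replicate 2 against -0.21 to -0.32 elsewhere. PARS2, the mitochondrial prolyl-tRNA synthetase, was at -0.31 ± 0.19, the centriole genes CEP135 and STIL at -0.22 ± 0.12 and -0.16 ± 0.05, and OPA1, of mitochondrial fusion, at -0.21 ± 0.09. PREB, PPP1R8 and PGD lay at -0.19 ± 0.16, -0.19 ± 0.13 and -0.18 ± 0.14. HELB, a helicase that limits resection, was at -0.15 ± 0.09 (edgeR adjusted p = 0.00691). Only PARP1 and PGD of these 12 were higher within the TP53BP1 background, where the rest did not pass. With niraparib set against T0 in place of the reference, NUP54 was at -0.04, PARS2 at -0.00 and STIL at -0.02; all 3 were higher in untreated growth with TP53BP1 than with non-targeting sgRNAs, which uses the same reference libraries. The lower calls depended on the test: DESeq2 called 2 partners lower and one fit of both backgrounds 3. Of 19 alternatives, STIL and PPP1R8 kept their call in 4, CTC1 in 6, PREB in 7 and PGD, OPA1 and HELB in 8. Without 2022 replicate 1 the number of lower partners was 5, without 2022 replicate 2 it was 9, and without 2023 replicate 1 it was 6.

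**Figure D4:**
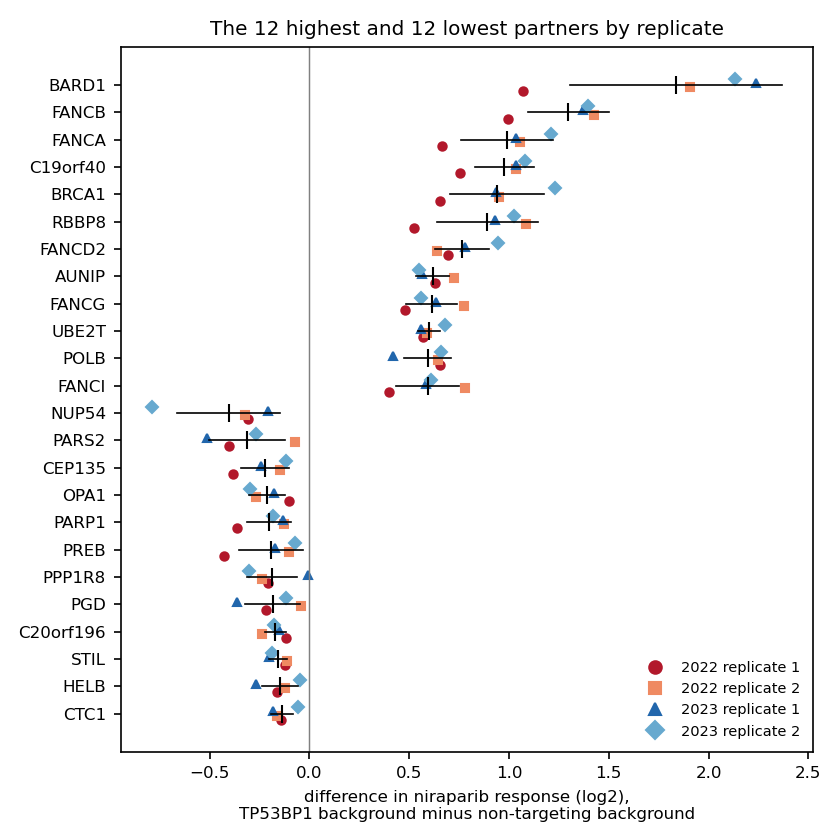
Difference in niraparib response (log2, TP53BP1 background minus non-targeting background) of the 12 highest and 12 lowest partners with the same sign in all 4 replicates; points are replicates, the tick is the mean and the line 1 SD. BARD1 and several Fanconi genes have their lowest value in 2022 replicate 1, such as 1.07 for BARD1 and 0.99 for FANCB, and the lowest partners lie nearer to 0 than the highest.

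The leading partners were also read by sgRNA and by position. Over the 4 sgRNA pairs of a partner with TP53BP1 the difference ran from 1.23 to 2.35 for BARD1, from 0.76 to 1.28 for BRCA1, from 1.13 to 1.48 for FANCB, from 0.90 to 1.19 for FANCA and from 0.32 to 0.76 for RIF1. For RBBP8 it ran from 0.23 to 0.995: pairs with one RBBP8 sgRNA were at 0.23 ± 0.57 and 0.56 ± 0.67, and pairs with the other at 0.91 ± 0.24 and 0.995 ± 0.34, so the first sgRNA's shift was smaller than its spread over the 4 cultures. With TP53BP1 in the first position and in the second, BARD1 was at 1.74 and 1.97, FANCB at 1.27 and 1.33, and BRCA1 at 0.84 and 1.02. None of these values lay at or below 0. BRCA2 ran from -0.02 to 0.87 over its sgRNA pairs, and C20orf196 was below 0 in all 4, from -0.22 to -0.06.

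BARD1 was the single partner called in the comparison of the 2 screens, with differences of 1.07 and 1.91 in 2022 and 2.24 and 2.13 in 2023 (2023 minus 2022, 0.70; edgeR SE 0.126, adjusted p = 0.00340). Over all gene pairs 0.0123% were called in this comparison, and 36 TP53BP1 partners had an unadjusted p under 0.05; so few calls do not show that the other differences were alike. The BARD1 call was lost without 2022 replicate 1, without 2023 replicate 1 and without the replicate block. Dose, time and screen date differed together between the screens and cannot be told apart.

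Untreated growth was read as a second measure; it shares the reference libraries with the response, so no relation between them is drawn. By edgeR, growth with TP53BP1 minus growth with non-targeting sgRNAs was higher for 50 of 541 partners (9.24%) and lower for 10 (1.85%), against 40.2% and 3.51% of all gene pairs. BARD1 and BRCA1 were the highest. BARD1 was at 1.64, 0.80, 0.66 and 0.55 over the 4 cultures (0.91 ± 0.50; edgeR adjusted p = 8.63e-25), and BRCA1 at 0.71, 0.21, 0.60 and 0.35 (0.47 ± 0.23; edgeR adjusted p = 6.59e-15). Both were thus less depleted with TP53BP1 in the absence of drug, in each of the 4 cultures, and most so for BARD1 in 2022 replicate 1.

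RBBP8 (0.21 ± 0.23), FANCA (0.19 ± 0.16), FANCM (0.21 ± 0.12), RIF1 (0.18 ± 0.13) and XRCC2 (0.13 ± 0.13) were the other 5 of the 7 partners, named as that set after their values were seen, that were higher in both growth and response. The 7 stand beside 12.2% of all 541 tested partners higher in response and 9.24% higher in growth. No relation between the 2 measures is read from this count. FANCB (0.07 ± 0.24), C19orf40 (0.02 ± 0.19), FANCD2 (0.03 ± 0.08) and UBE2T (0.02 ± 0.18) did not pass in growth, although their responses to niraparib changed. Among the 10 lower in growth were RNF168 (-0.17 ± 0.13) and ATM (-0.13 ± 0.09), named as recruitment factors. Of the 6 recruitment factors 2 were lower in growth and 1 was higher, against 1.85% and 9.24% of all partners. Their median growth difference was -0.04. Neither DESeq2 nor limma over the 4 replicates called any partner lower in growth, so neither called RNF168 or ATM. The higher count was 17 without 2022 replicate 1 and 29 without 2023 replicate 1, the lower count 5 without 2022 replicate 2, and DESeq2 called 1 higher and 0 lower.

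Set among the other 542 genes taken as backgrounds in turn, TP53BP1 was not extreme in the number of partners it shifted. By the number with a difference above 0.5 it had 15 and ranked 174. The slope of partner responses in a background on their responses with non-targeting sgRNAs was 0.67 for TP53BP1, where 1 means no common attenuation. The median over the 543 backgrounds was 0.85, and 148 backgrounds had a lower slope than TP53BP1. Those 148 all grew slowly on their own, with a median growth of -1.44 and a highest value of -0.69, against -0.20 for TP53BP1. Of the 177 backgrounds with growth at or above that of TP53BP1 it had the lowest slope, next to 0.76, and their median was 0.99. Without the 18 partners that are Fanconi genes, BRCA1, BARD1 or RBBP8, the slope was 0.77 and ranked 2 of 177. The 177 were cut at TP53BP1's own growth, so it was the slowest grower among them. That growth was -0.20, and -0.10 without 2022 replicate 1. Lower slopes went with slow growth, so this cut favours a low slope for TP53BP1 in the set. These ranks are descriptions without a test.

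**Figure D5:**
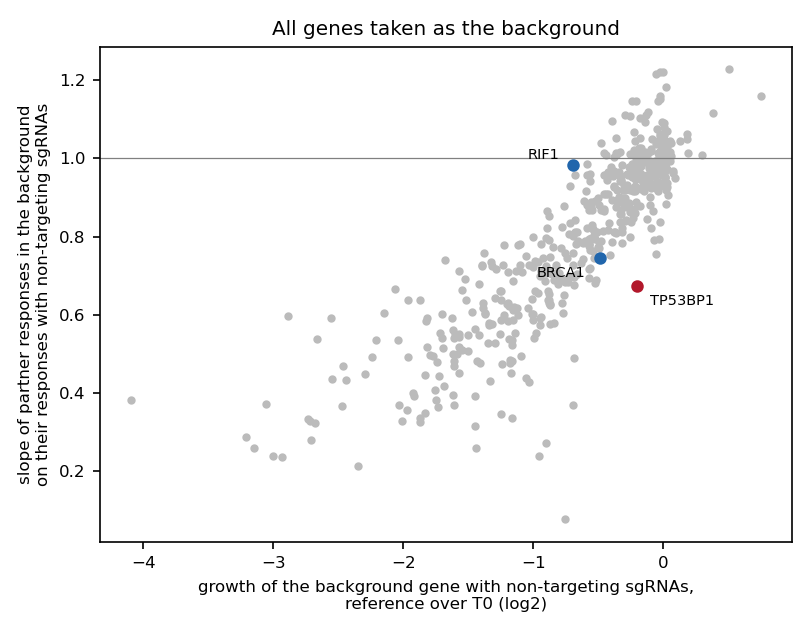
Each point is 1 of 543 genes taken as the background. The horizontal axis is its untreated growth with non-targeting sgRNAs (log2, reference over T0) and the vertical axis the slope of its partners' niraparib responses on their responses with non-targeting sgRNAs; TP53BP1 (red) lies at a growth of -0.20 and a slope of 0.67, the lowest slope of the 177 backgrounds with growth at or above its own.

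For single partners, TP53BP1 was ranked among all the pairs of the partner. It ranked 6 of 542 for RAD18, 9 of 541 for FANCB, 11 of 541 for UBE2T, 13 of 541 for RIF1, 15 of 541 for C19orf40 and 19 of 541 for AUNIP. For FANCA and FANCD2 it ranked 26, for BARD1 32, for RBBP8 53 and for BRCA1 73. The other Fanconi genes were spread, from 40 for FANCC and FANCE, 43 for FANCG and 44 for FANCF to 80 for FANCI, 100 for C17orf70 and 203 for STRA13. The genes above it were mostly slow growers, with a median growth of -1.45 for FANCB and -0.90 for BARD1. Genes above it that grew as well were counted with a cut at its own growth, -0.20 (-0.10 without 2022 replicate 1). This cut leaves out the slow growers and so favours low counts, and no conclusion is drawn from them. None of the genes above it grew as well as TP53BP1 for FANCB, C19orf40, RBBP8, FANCG, RAD18 or RIF1, and ATM was the only such gene for FANCA, FANCD2, UBE2T and FANCI. For POLB TP53BP1 ranked 155 of 542, also with no gene above it that grew as well. No such gene lay above it for FANCE, FANCF, FANCL, C4orf27, LIG3 or SFR1 either. For BRCA2 and PALB2 TP53BP1 ranked 361 and 370 of 542, with 52 and 53 such genes above it.

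Effectors of 53BP1 were also read as backgrounds of their own. For BARD1 the edgeR difference was 1.84 with TP53BP1, 1.74 with RIF1, 0.99 with C20orf196, 0.86 with FAM35A, 0.26 with MAD2L2 and -0.11 with PAXIP1 (adjusted p = 0.522), and outside the effector list 1.33 with OBFC1 and 0.29 with ATM. Over the whole recruitment list and the CST and polymerase alpha-primase list it ran from -0.32 with DYNLL1 to 1.53 with PRIM1. The median over all BARD1 pairs was 0.43, above the values with ATM and MAD2L2. For BRCA1 the difference was 0.94, 0.79, 0.59, 0.88, 0.54 and 0.13 in the order given for TP53BP1 and the effectors, with 1.03 for OBFC1 and 0.60 for ATM. Over the same lists it ran from -0.20 with DYNLL1 to 1.21 with PRIM1, and the median over all BRCA1 pairs was 0.37. For FANCA the difference was 0.99 with TP53BP1, 0.25 with RIF1, 0.72 with C20orf196, 0.88 with FAM35A, 0.46 with MAD2L2, 0.18 with PAXIP1 and 1.04 with both OBFC1 and ATM. Over the same lists it ran from -0.11 with RNF168 to 1.09 with POLA1, and the median over all FANCA pairs was 0.29. RIF1 thus had a high value for BARD1, and lower values than TP53BP1 for these Fanconi genes. It had 0.37 for FANCB, 0.06 for FANCD2 and -0.37 for UBE2T, where TP53BP1 had 1.30, 0.76 and 0.60. The medians over all pairs of FANCB, FANCD2 and UBE2T were 0.33, 0.20 and 0.08. The FANCB value with RIF1 was thus not below its median. For BRCA2 the value was 0.97 with RIF1 and 0.18 with TP53BP1. Over the recruitment list and the CST and polymerase alpha-primase list it ran from -0.24 with ATMIN to 1.29 with POLA1, with 1.03 for OBFC1. The median over all BRCA2 pairs was 0.43, so a high value was not particular to RIF1. RIF1 had its own response of -0.55 and growth of -0.69, against 0.22 and -0.20 for TP53BP1, and the differences between backgrounds were not tested.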

How the data were processed

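Constructs were counted in 12 libraries of genomic DNA. The deposited counts are reads per dual-sgRNA construct, amplified by PCR without molecular identifiers per the labels' protocols; Bowtie2 2.3.4.1 is named in the submitters' processing notes, and its settings are not given in the sources used here. The authors also deposited log2 phenotype scores; their niraparib-over-reference score could be recomputed from the counts with a pseudocount of 10 and divisors of 1.87, 2.37, 2.64 and 3.00 for the 4 cultures, and it served as an alternative.

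Counts were summed per gene pair over both sgRNAs and both orders. All gene pairs, and pairs of a gene with a single non-targeting sgRNA, with a mean of at least 50 reads over the 8 endpoint libraries entered edgeR's quasi-likelihood test (edgeR 4.0.16, R 4.3.3). The offset of a pair was the product of its 2 genes' counts with non-targeting sgRNAs over the count of non-targeting pairs. The model held a block for each culture and a niraparib term for each screen, averaged, with Benjamini-Hochberg adjustment over all pairs and a threshold of 0.05. Its standard error rests mostly on a spread within screens pooled over all gene pairs (for the response, 2 residual and 563 prior degrees of freedom). The counts in the offset are taken as exact. The edgeR p-values therefore do not measure the spread of a single partner between cultures, which the SD gives. Replicate values are log2 ratios with 0.5 added, given as mean and SD over 4 cultures. The scripts were tested on simulated data. DESeq2 1.42.0, limma 3.58.1 over the 4 replicate values, a curve of degree 2 through all partners, other scalings and filters, each TP53BP1 sgRNA and position alone, and each culture left out were the alternatives; niraparib against T0 and the curve fitted without BARD1 were added after seeing the data.

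The block rests on the labels, by which each culture was divided into both arms. Deviations of same-numbered libraries correlated over 542 partners at 0.171 in 2022 and 0.120 in 2023 between niraparib and reference, and at 0.0233 to 0.0791 between other arms. The text names the 12 highest and 12 lowest called partners with the same sign in all 4 cultures, all measured members of the BRCA1-BARD1, 53BP1 recruitment, effector and CST lists, and at most 4 members of each other list; exceptions are stated. The members and lists were chosen with earlier results of these data known. No sgRNA sequences were used here. Some measured partners are not reported here.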

Additional observations from a re-analysis of the deposited data

Results flagged for a closer look

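Of 42 sets of 4 replicate values examined, 6 held a value whose gap to the nearest other value was large for the range of the set; chance gives about 1 in 20. TP53BP1 with non-targeting sgRNAs gave a response of 0.55 and an untreated growth of -0.49 in 2022 replicate 1, and both values use the same reference library. In the difference in niraparib response, FANCB (0.99) and C19orf40 (0.76) had their lowest value in 2022 replicate 1, POLB its lowest (0.42) in 2023 replicate 1, and RNF168 its highest (0.11) in 2023 replicate 2. The difference of BARD1 was 0.70 higher in 2023 than in 2022 by edgeR's test of that contrast.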

How the results depend on the processing

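Within the TP53BP1 background 129 partners were higher and 114 lower; leaving out each culture gave 40 to 119 and 63 to 105, and the higher count was 73 with the first TP53BP1 sgRNA alone and 84 with TP53BP1 in the second position alone. For the difference in response, 66 partners were higher and 15 lower. Leaving out each culture gave 48 to 60 and 5 to 11. The higher count was 111 with niraparib against T0, 35 with one fit of both backgrounds and 13 against the curve of degree 2, also with the curve fitted without BARD1. The lower count was 5 with the second sgRNA alone, 8 and 6 with TP53BP1 in the first and second position alone, 2 with DESeq2, 3 with one fit of both backgrounds and 9 against the curve with or without BARD1 in its fit, none of them among the 15. Against the curve POLB turned to -0.14 and PARP1 to 0.088, and without BARD1 to -0.13 and 0.096. For untreated growth, 50 were higher and 10 lower; leaving out each culture gave 17 to 49 and 5 to 11. The counts were 22 and 5 with the second sgRNA alone, 88 and 6 in the first position, 16 and 20 in the second, 24 and 21 with TMM scaling, 1 and 0 with DESeq2, and 10 and 0 with limma. Without the replicate block the response counts were 62 higher and 13 lower, and the single screen difference was 0; leaving out each culture gave 0 to 1 there. The pairing changed the call of no named partner but PPP1R8. TP53BP1 alone responded at 0.12 to 0.27 with each culture left out. The causes of these shifts were not tested. Depth limits the rarest partners, such as NOL6, with a mean of 48.75 reads.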
